A study of Mus musculus with 2 samples.

Results

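Wide nucleosome calls are called nucleosomes whose end lies 180 bp or more from their start. They were taken from the autosomal lines of 2 deposited MNase-seq lists of mouse embryonic stem (ES) cells, 1 list per library. There were 127076 of them among 2702876 autosomal calls, 66401 in the tamoxifen library and 60675 in the ethanol library. The 2 lists hold 2724853 calls on all chromosomes. The calls were chosen by their width, so their width is not a result. Calls 100 to 120 bp wide, 566250 with tamoxifen and 512269 with ethanol, served for comparison.

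Both libraries came from Brg1fl/fl ES cells with Actin-CreER, an inducible Cre recombinase driven by an actin promoter, grown in serum and LIF on gelatin. In the tamoxifen group the medium held tamoxifen at 0.8 µM during the first 24 hours and none during the next 48 hours, and in the ethanol group it held as much ethanol on the same schedule. Both groups carry the floxed alleles and the Cre, and no group without Cre was analysed here, so loss of Brg1 and tamoxifen with active Cre cannot be told apart. How far Brg1 was lost was not analysed here. Each group has 1 library, so there is no replicate check and no test was made. Intervals are 95%, cover counting error only and treat calls as independent. The depth in reads is unknown.

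Micrococcal nuclease cuts the linker between nucleosomes and spares the DNA wound round the histone core, so the mononucleosome band marks where nucleosomes sat in a population of cells. Where all cells hold a nucleosome at the same place the recovered DNA piles up in a narrow peak, and where the place varies between cells the peak is broad and is called fuzzy or delocalised. Brg1 burns ATP for esBAF, a remodeling complex of ES cells that belongs to the SWI/SNF family, whose members slide and evict nucleosomes. The series asks whether esBAF promotes the spacing of nucleosomes. What made the caller place an edge where it did is not stated in the labels. The positions are on mm9, for which neither sequence nor gene models were used, so genes and DNA at these calls were not analysed here.

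Over all scores, wide calls made up nearly the same share of the autosomal calls in both libraries. With tamoxifen they were 4.70% (Wilson interval 4.66 to 4.73%), against 4.70% (4.67 to 4.74%) with ethanol. In number they were 1.09 times as many with tamoxifen (exact interval 1.08 to 1.11), and all autosomal calls were 1.10 times as many. On 9 of 19 autosomes tamoxifen had the higher share. Among calls at their list's median score or above, the share was 6.69% with tamoxifen and 6.57% with ethanol, a difference of 0.1196 points whose interval, 0.0362 to 0.203, left out 0. They covered 13.0 Mb in the tamoxifen library and 11.9 Mb in the ethanol library, which is 8.22% of the called bases in each. Widths lie on a 10 bp grid from 80 to 240 bp, and numbers fell off without a step at the limit. At 180 bp, just inside it, there were 24010 tamoxifen calls and 21986 ethanol calls, and at 170 bp, just outside, 36530 and 33722. At the upper end, 2630 tamoxifen calls and 2450 ethanol calls were 240 bp wide.

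Wide calls carried higher scores than calls of ordinary width. The score is the authors' own and its definition is not given in the sources used here, so it is used mainly to rank calls within a list. Where scores of the 2 lists stand side by side, whether they share a scale was not tested. The median score of wide calls was 115.2 with tamoxifen (quartiles 82.4 and 173.4) and 113.6 with ethanol (81.5 and 172.6). For calls 100 to 120 bp wide the medians were 86.0 with tamoxifen (63.4 and 129.5) and 87.0 with ethanol (65.5 and 130.9). The median was higher for wide calls on 19 of 19 autosomes in each library. From 170 bp upwards the median score was higher at each wider step, from 99.2 at 170 bp and 108.1 at 180 bp in both lists to 134.7 with tamoxifen and 140 with ethanol at 240 bp. At each width from 80 bp (73.4) to 190 bp (111.7) the median was the same in both lists. Whether the score depends on width by its definition was not tested, so a higher score need not mean a stronger call. Wide calls were 1.85% of tamoxifen calls and 1.96% of ethanol calls below a score of 65.3, the lower quartile of either list, and 7.99% and 7.77% of them at 128.7 or above, the upper quartile. At the ceiling of the score, 3250, stood 45 wide calls among 689 autosomal calls with tamoxifen, and 35 among 645 with ethanol.

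**Figure D1:**
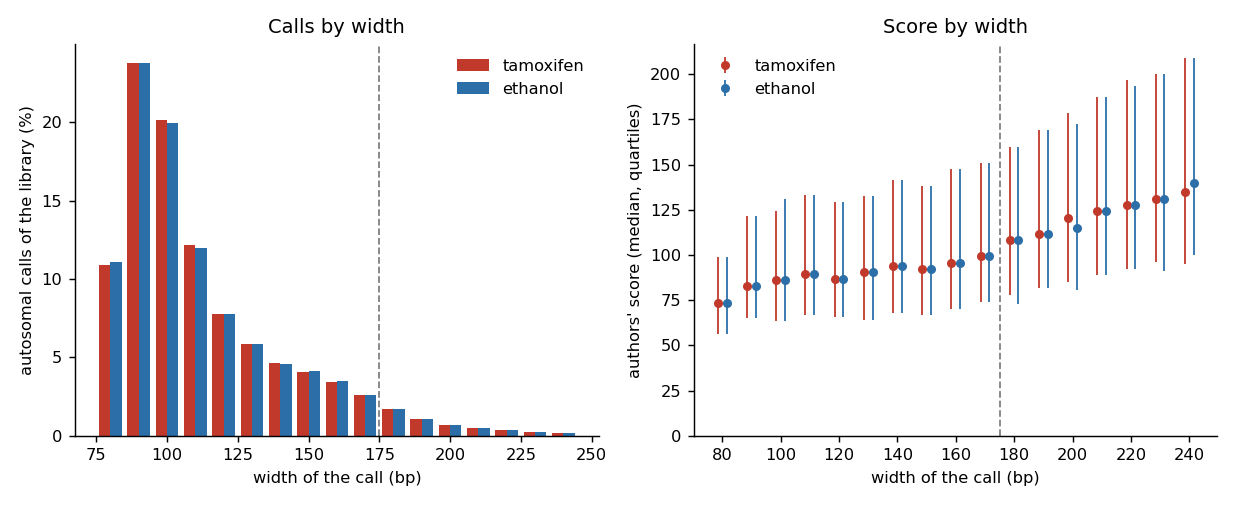
Share of autosomal calls at each width in bp (left) and median authors' score with quartiles as bars (right), for the tamoxifen library in red and the ethanol library in blue. The dashed line separates 170 from 180 bp. Numbers fall off across the line without a step, and median scores climb from 108.1 at 180 bp in both lists to 134.7 with tamoxifen and 140 with ethanol at 240 bp. From 80 to 190 bp the medians of the 2 lists are equal at each width.

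What the other library held at a wide call was most often 1 narrower call or none, as at autosomal calls of all widths. A call of the other library was counted when its centre lay in the interval. Of the wide tamoxifen calls, 50.3% (Wilson interval 49.9 to 50.6%) had 1 narrower ethanol call, 40.4% (40.1 to 40.8%) had none, 6.72% (6.54 to 6.92%) had 1 wide call and 1712, or 2.58% (2.46 to 2.70%), had 2. A single wide tamoxifen call had 3 or more. Of the wide ethanol calls, 53.8% (53.4 to 54.1%) had 1 narrower tamoxifen call, 35.5% (35.1 to 35.9%) had none, 7.36% (7.16 to 7.57%) had 1 wide call and 2059, or 3.39% (3.25 to 3.54%), had 2. Among all autosomal calls, 44% of those with tamoxifen and 38.5% of those with ethanol had no call of the other library in the interval. In the same lists 53.7% of tamoxifen calls and 58.8% of ethanol calls had 1 narrower call there, more than among wide calls. A single wide call lay at 2.15% of tamoxifen calls and 2.45% of ethanol calls, and 0.187% and 0.246% had 2 or more. The ethanol list is the shorter of the 2, and so offers fewer partners to tamoxifen calls than the reverse. The share without a partner was higher for tamoxifen calls on 19 of 19 autosomes, both among wide calls and among calls 100 to 120 bp wide.

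Whether wide calls lacked a partner more often than ordinary calls depended on how the interval was drawn and on whether calls of like score were compared. With each call's own interval, the 40.4% of wide tamoxifen calls without a partner were fewer than the 43.0% of those 100 to 120 bp wide, and with ethanol the shares were 35.5% and 36.9%. The narrower calls have shorter intervals, however. Counted over the same 100 bp on either side of the centre, 40.3% of wide calls and 39.8% of calls 100 to 120 bp wide had none with tamoxifen, and 35.4% and 33.4% with ethanol, so the order turned. Under that count the wide share was the higher on 14 of 19 autosomes with tamoxifen and on 18 of 19 with ethanol.

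At like score, wide calls had no partner more often in every score class of both libraries. How the score depends on width is unknown, so a wide and a narrower call of like score need not be of like strength. This was not tested. In the highest class, at 128.7 or above, 20.0% of wide tamoxifen calls (Wilson interval 19.6 to 20.5%) had no ethanol centre within 100 bp, against 11.2% (10.99 to 11.32%) of those 100 to 120 bp wide. With ethanol the shares in this class were 17.2% (16.7 to 17.6%) for wide calls and 9.02% (8.86 to 9.17%) for calls 100 to 120 bp wide. With each call's own interval the order was the same in all 4 score classes, and in the highest class the shares were 20.1% for wide calls and 14.0% for calls 100 to 120 bp wide with tamoxifen, and 17.2% and 11.9% with ethanol. Within 100 bp and below a score of 65.3 they were 69.3% and 63.5% with tamoxifen, and 62.1% and 55.3% with ethanol.

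Few wide calls met a wide call in the other library, but more of them than of the ordinary calls did. A single wide call of the other library lay at 6.72% of wide tamoxifen calls and 7.36% of wide ethanol calls, and at 1.89% and 2.20% of the calls 100 to 120 bp wide. The order was the same on 19 of 19 autosomes in each library and with the same 100 bp on either side of the centre (6.74% against 2.54% with tamoxifen, 7.37% against 2.85% with ethanol). Where both libraries had a wide call, the centres were a median of 15 bp apart and 21.7% of the tamoxifen calls had the same width as their ethanol partner. Only 204 wide calls had the same start and end in both libraries, 0.307% of those with tamoxifen and 0.336% of those with ethanol. Among calls 100 to 120 bp wide, 17180 were identical, 3.03% and 3.35%, and among all autosomal calls 54804 were, 3.88% and 4.25%. Part of this difference is built in. Identical calls must have equal widths, and each width from 180 bp upwards is rarer than each width from 100 to 120 bp.

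**Figure D2:**
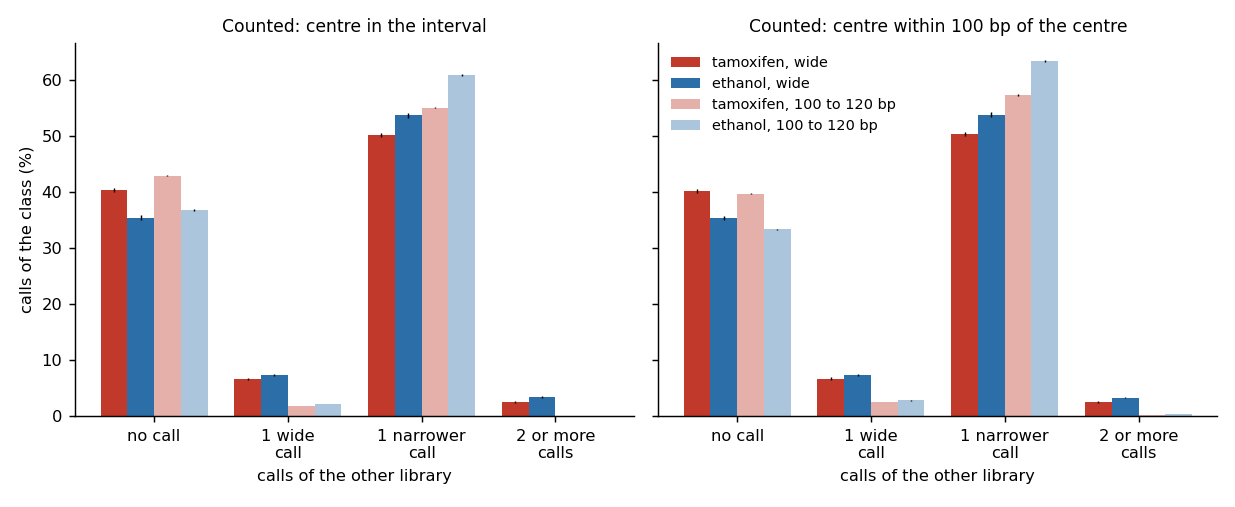
Share of calls with no call, 1 wide call, 1 narrower call, or 2 or more calls of the other library, for wide calls (full colour) and calls 100 to 120 bp wide (pale) of the tamoxifen (red) and ethanol (blue) libraries, with Wilson intervals. On the left a partner's centre lies in the call's own interval and on the right within 100 bp of its centre. The pairs of bars for no call change order between the panels, and 1 wide call and 2 or more calls stand higher for wide calls in both.

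A single partner of a wide call sat off its centre. Among calls with exactly 1 centre of the other library within 100 bp, the median distance to it was 30 bp for wide calls in both libraries and 15 bp for calls 100 to 120 bp wide. Partners more than 50 bp away made up 21.7% for wide tamoxifen calls and 23.6% for wide ethanol calls, against 6.12% and 5.97% for calls 100 to 120 bp wide. The mean distance per autosome ran from 32.0 to 34.5 bp for wide tamoxifen calls and from 33.1 to 35.9 bp for wide ethanol calls, while for calls 100 to 120 bp wide it stayed at 18.99 bp or less with tamoxifen and at 19.02 bp or less with ethanol, so the ranges did not overlap. A wide call has room for a partner anywhere under it, and centres move in steps of 5 bp. The partners were slightly wider than those of ordinary calls, with a median width of 120 bp at wide tamoxifen calls and 110 bp at wide ethanol calls, against 100 bp at calls 100 to 120 bp wide. Of the partners of wide calls, 11.8% with tamoxifen and 12.0% with ethanol were wide themselves, and 22.0% and 23.1% were under 100 bp. Their median score was 101.3 and 101.9 at wide calls, and 101.6 and 104.5 at calls 100 to 120 bp wide.

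Wide calls over which the other library had 2 calls were wider and higher in score than wide calls as a whole, whose median width was 190 bp. With 2 partners the median score of the wide call was 236.7 with tamoxifen and 216.6 with ethanol, and the median width 200 bp in both. The 2 partners were narrow, with a median width of 90 bp, and had median scores of 92.0 with tamoxifen and 92.1 with ethanol. Their centres were a median of 135 bp apart at wide tamoxifen calls (quartiles 120 and 150) and 140 bp at wide ethanol calls (125 and 155). Close spacing and narrow partners are in part built in. Both centres had to lie in 1 interval of at most 240 bp, and calls of a list do not overlap. The share with 2 partners grew with width, from 1.30% of tamoxifen calls at 180 bp to 6.58% at 240 bp, and from 1.81% to 9.47% of ethanol calls, while at 170 bp it was 0.788% and 1.08%. It was lower for wide tamoxifen calls on 18 of 19 autosomes, and the list searched for their partners is the shorter one. A longer interval holds more centres by construction, but over the same 100 bp on either side of the centre 2.53% of wide calls with tamoxifen and 3.35% with ethanol still had 2 or more partners, against 0.289% and 0.366% of calls 100 to 120 bp wide.

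**Figure D3:**
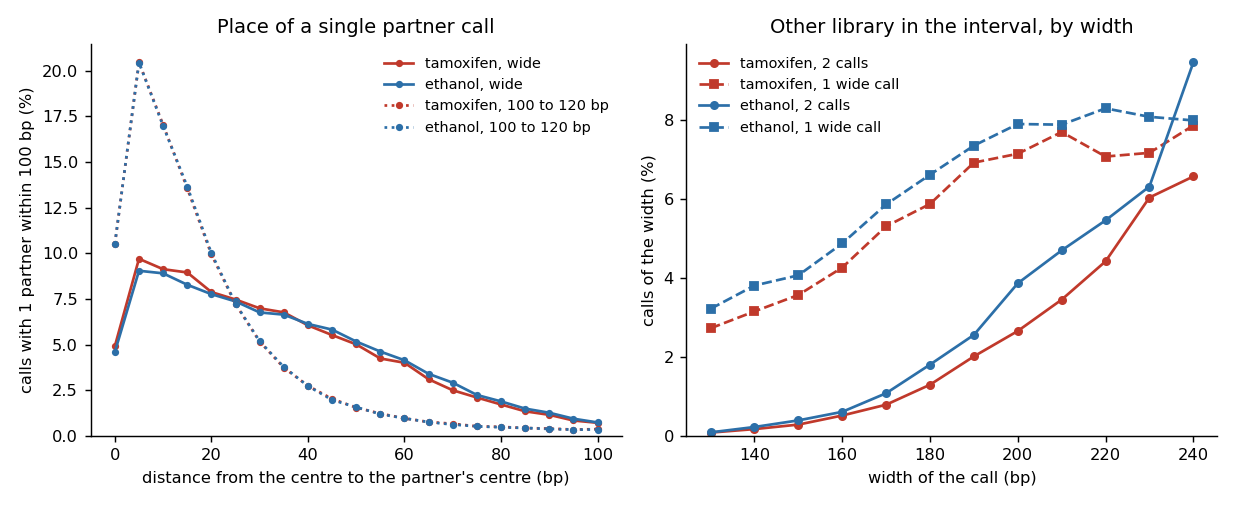
Left, distance in bp between the centres of a call and its single partner in the other library, as a share of calls with 1 partner within 100 bp, for wide calls (full lines) and calls 100 to 120 bp wide (dotted lines, which coincide). Right, share of calls of each width with 2 calls (full lines) or 1 wide call (dashed lines) of the other library centred in the interval, tamoxifen in red and ethanol in blue. The share with 2 calls reaches 6.58% with tamoxifen and 9.47% with ethanol at 240 bp.

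Wide calls without any partner in the interval seldom had a centre of the other library within 150 bp, 5.14% with tamoxifen and 6.30% with ethanol. The nearest one lay more than 1000 bp away for 34.0% and 28.8%. The nearest ethanol centre was a median of 650 bp away for 26852 such tamoxifen calls, and the nearest tamoxifen centre 575 bp for 21535 such ethanol calls. For calls 100 to 120 bp wide without a partner the medians were 500 bp and 405 bp. Part of this difference is built in, because a longer interval without a centre keeps the nearest centre farther away. Unpartnered wide calls still had median scores of 91.2 with tamoxifen and 87.8 with ethanol, against 70.7 in each list for unpartnered calls 100 to 120 bp wide.

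Neighbours stood farther from wide calls and kept the same modal gap. The next call on the chromosome lay at a median of 940 bp from centre to centre with tamoxifen and 1000 bp with ethanol, against 820 bp and 865 bp for calls 100 to 120 bp wide. From edge to edge the medians were 780 bp and 850 bp for wide calls, and 710 bp and 750 bp for the others. A next call 140 to 400 bp away followed 19.2% of wide tamoxifen calls (Wilson interval 18.9 to 19.5%) and 18.4% of wide ethanol calls (18.1 to 18.7%), against 26.6% and 25.9% of calls 100 to 120 bp wide, and the share was lower for wide calls on 19 of 19 autosomes in each library. Tamoxifen exceeded ethanol among wide calls by 0.771 points (interval 0.341 to 1.20). With 200 bp as the limit of a wide call it did so by 0.325 points, with an interval that included 0. Tamoxifen also had the higher share among calls 100 to 120 bp wide and among all autosomal calls (28.2% against 27.4% with ethanol). This order was therefore not particular to wide calls. Part of the lower share of wide calls is built in, because calls do not overlap and a wider call keeps its neighbour's centre farther away. The least possible distance, 130 bp, holds only for a call of 180 bp beside one of 80 bp. Measured from edge to edge, gaps of 300 bp or less followed 23.7% of wide tamoxifen calls and 23.0% of wide ethanol calls, against 28.2% and 27.3%, so a smaller difference of the same direction was left. The commonest gap was 90 to 100 bp for both widths in both libraries, and the commonest centre distance was at 260 bp for wide tamoxifen calls, 250 bp for wide ethanol calls and 190 bp for calls 100 to 120 bp wide.

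In distances between centres, the regular ladder of nucleosomes beyond the first neighbour was weak around wide calls. In 20 bp bins, calls of the same library from 240 to 260 bp away numbered 4.75 per 100 wide tamoxifen calls and 4.98 per 100 wide ethanol calls, both sides together, and dipped to 3.44 in the bin from 360 bp and 3.11 in the bin from 340 bp. Around calls 100 to 120 bp wide the first peak reached 7.42 with tamoxifen, in the bin from 180 bp, and 7.17 with ethanol, in the bin from 200 bp, and the dips were 2.82 and 2.90 from 280 bp. Second peaks there stood at 5.17 with tamoxifen and 4.64 with ethanol, from 380 bp.

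Around ordinary calls the periodicity was stronger in the tamoxifen list, and around wide calls it was not. The periodicity contrast is the number of calls 350 to 410 bp away over the number 260 to 320 bp away, and around calls 100 to 120 bp wide it was 1.69 (interval 1.67 to 1.70) with tamoxifen and 1.51 (1.496 to 1.531) with ethanol, a ratio of 1.11 (1.10 to 1.13). Around wide calls it was 0.862 (0.835 to 0.890) and 0.872 (0.843 to 0.902), a ratio of 0.989 (0.944 to 1.04). These distances fall on other parts of the ladder when the call is wide. Around wide calls the dip lay in the bin from 360 bp with tamoxifen and from 340 bp with ethanol, in or at the edge of the upper window. A lower value from the centres is therefore no sign of a weaker ladder there. The contrast was also taken from the edges, as centres 290 to 350 bp over those 200 to 260 bp beyond an edge, limits chosen after the distances had been seen. From the edges it was 1.12 (1.08 to 1.16) with tamoxifen and 1.20 (1.16 to 1.24) with ethanol around wide calls, a ratio of 0.933 (0.890 to 0.978). Around calls 100 to 120 bp wide it was 1.62 (1.60 to 1.64) and 1.46 (1.45 to 1.48), a ratio of 1.11 (1.09 to 1.12). The ratio for wide calls over that for the others was 0.843 (0.802 to 0.887) from the edges. From the centres it was 0.888 (0.845 to 0.932), but there unlike parts of the ladder are compared, so it does not measure the same difference. Around wide calls the contrast was lower with tamoxifen on 11 and higher on 8 of 19 autosomes from the centres, and lower on 13 and higher on 6 from the edges. Around calls 100 to 120 bp wide it was higher with tamoxifen on 19 of 19 by either measure. Pairs share calls, so these intervals are too narrow, and the spread between digests or cultures of 1 group was not measured.

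**Figure D4:**
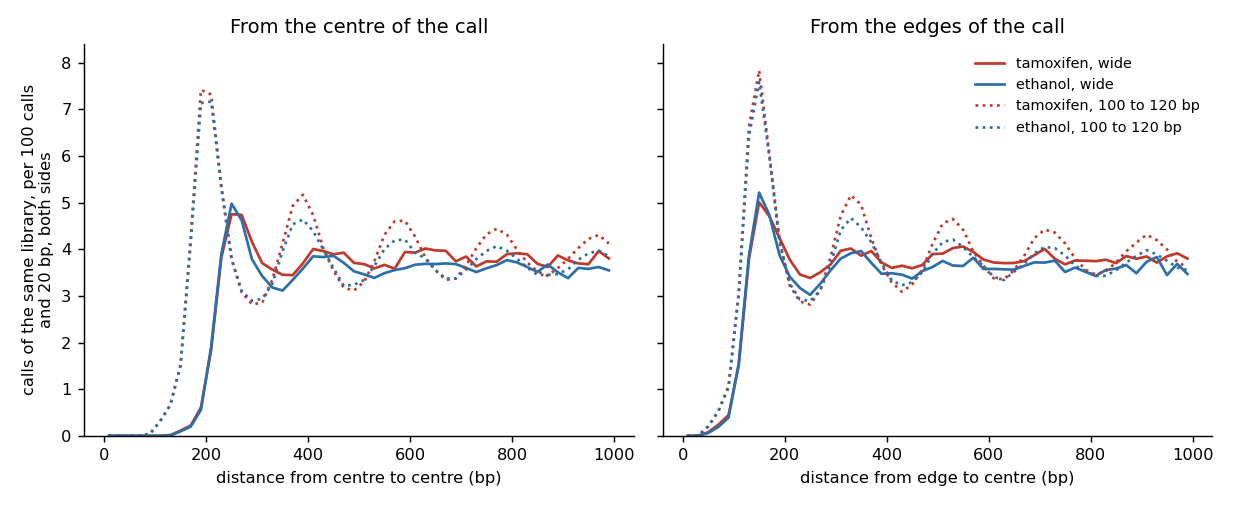
Calls of the same library per 100 calls and 20 bp bin, both sides together, by distance in bp from the centre (left) or from the edges (right) of wide calls (full lines) and of calls 100 to 120 bp wide (dotted lines), tamoxifen in red and ethanol in blue. The dotted ladder is higher and deeper, and its tamoxifen second peak at 5.17 exceeds the ethanol one at 4.64, while the full lines show a first peak of 4.75 with tamoxifen and 4.98 with ethanol.

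Wide calls were only slightly clustered among themselves. Where the next call lay within 1000 bp, it was itself wide after 4.84% of wide tamoxifen calls (Wilson interval 4.62 to 5.07%) and 4.90% of wide ethanol calls (4.66 to 5.15%), against 4.39% (4.32 to 4.46%) and 4.37% (4.30 to 4.45%) after calls 100 to 120 bp wide. The share was the higher after wide calls on 15 of 19 autosomes with tamoxifen and on 17 of 19 with ethanol. With 200 bp as the limit of a wide call the difference was 0.184 points with tamoxifen and 0.128 points with ethanol, and both intervals included 0. Runs of successive wide calls were short. In the tamoxifen list 3009 runs had 2 calls, 156 had 3 and 4 had 4, and in the ethanol list 2890 had 2, 140 had 3, 6 had 4 and 1 had 5. The run of 5, chosen after its length was seen, spread over 12580 bp of chromosome 11 from 63613211 to 63625791, where the tamoxifen library had 4 calls, 1 of them wide. Of the 10 kb windows with wide calls, 45045 held 1 such call with tamoxifen and 41619 with ethanol, and no window held more than 6 with tamoxifen or 7 with ethanol.

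Wide calls were relatively more frequent where called nucleosomes were sparse. With at most 2 other calls of the same library within 5 kb, 5.37% of tamoxifen calls (Wilson interval 5.26 to 5.49%) and 5.30% of ethanol calls (5.19 to 5.41%) were wide. With 21 or more, 3.57% (3.44 to 3.70%) and 3.59% (3.44 to 3.74%) were. The share was lower in each denser class in both libraries. Wide calls in the densest class had a median score of 188.0 in each library, against 92.5 in each in the sparsest class, so density and score moved together and their parts in the share were not tested. Per chromosome the share of wide calls ran from 4.44 to 4.99% with tamoxifen and from 4.49 to 5.19% with ethanol. Chromosome 8, which is rich in calls, had the lowest share in both libraries and yet the most wide calls per Mb, 42.9 with tamoxifen and 40.1 with ethanol, and chromosome 3 the fewest, 19.9 and 17.7. The share of wide calls without a partner was lowest on chromosome 8 as well, 29.7% with tamoxifen and 24.5% with ethanol. On chromosome 12 it was 29.9% and 25.8%. For the comparison calls of ordinary width the share was also lowest on chromosome 8, 34.0% with tamoxifen and 28.1% with ethanol. The low share on chromosome 8 was therefore not particular to wide calls.

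**Figure D5:**
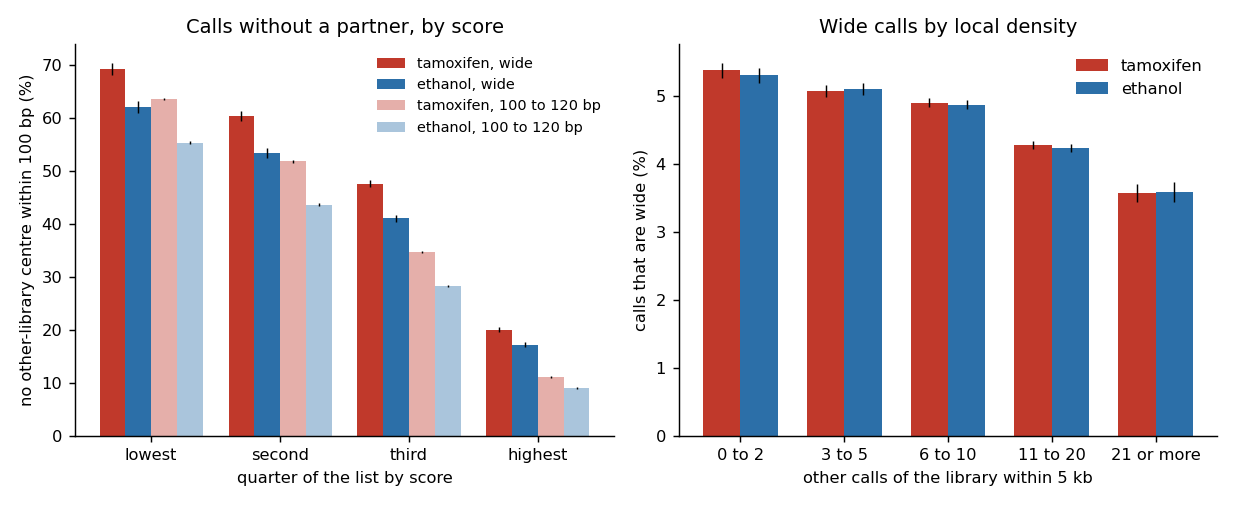
Left, share of calls with no centre of the other library within 100 bp, by score class of the own list (limits at the quartiles), for wide calls (full colour) and calls 100 to 120 bp wide (pale). Right, share of calls that are wide by the number of other calls of the same library within 5 kb, tamoxifen in red and ethanol in blue, with Wilson intervals. In the highest score class 20.0% of wide tamoxifen calls and 17.2% of wide ethanol calls had no partner, and wide calls made up 5.37% and 5.30% of calls in the sparsest surroundings.

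Examples were taken of calls with 1 wide partner, 1 narrower partner, 2 partners and none. Positions are given as the mm9 files hold them, and the regions were taken by score or width. Many calls tie at the ceiling of the score and were then taken in the order of the chromosomes, so the low chromosome numbers below carry no meaning. On chromosome 1 the tamoxifen call at chr1:85270151-85270351 met the ethanol call at chr1:85270171-85270361, both at the ceiling of 3250, and the tamoxifen call at chr1:85276981-85277181 met that of ethanol at chr1:85276971-85277191 with the same centre. A narrower partner lay at chr1:85257891-85258081, where a tamoxifen call of 190 bp at the ceiling met an ethanol call of 170 bp scored 2712.2, and at chr1:85278481-85278671, where an ethanol call of 190 bp at the ceiling met a tamoxifen call of 100 bp scored 2429.0. A few kb on, at chr1:85280661-85280841, a tamoxifen call of 180 bp at the ceiling faced 2 ethanol calls of 80 bp, with scores of 1328.6 and 813.9 and centres 120 bp apart. How reads that match several places were treated is not given in the sources used here.

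Of the calls tied at 240 bp, the 5 of highest score in each list were looked at singly. The call at chr1:40043071-40043311 was among them in both lists with the same start and end, scored 2800.4 with tamoxifen and 3228.2 with ethanol. At chr11:3041551-3041791 a tamoxifen call of 240 bp at the ceiling lay over 2 ethanol calls of 120 and 80 bp, both at the ceiling too, with centres 140 bp apart. At chr4:147010821-147011061 a tamoxifen call of 240 bp at the ceiling lay over ethanol calls of 80 and 110 bp, scored 581.2 and 1453.4 and 145 bp apart. The libraries changed places at chr2:50599371-50599591, where an ethanol call of 220 bp at the ceiling lay over tamoxifen calls of 80 and 130 bp, scored 742.1 and 2577.0 and also 145 bp apart. At chr8:20023321-20023521 an ethanol call of 200 bp at the ceiling lay over tamoxifen calls of 90 and 80 bp, 125 bp apart.

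Wide calls of the highest scores without a partner differed in how far the other library's nearest call lay. On chromosome 10 the tamoxifen calls at chr10:7234881-7235091 and chr10:7236701-7236901, both at the ceiling, had their nearest ethanol centres 210 and 215 bp away. The third, at chr12:106261581-106261771, had its nearest 230 bp away. Of the ethanol calls, that at chr8:19720501-19720711 was at the ceiling with the nearest tamoxifen centre at 270 bp. Those at chr10:76846671-76846911, scored 2145.3 and 240 bp wide, and chr9:14725731-14725931, scored 1411.3, had none within 805 and 965 bp. The 10 kb window with most wide calls in both lists together, chromosome 12 from 114300001 to 114310000, held 4 among 27 tamoxifen calls and 5 among 25 ethanol calls.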

How the data were processed

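MNase-seq libraries were made from nuclei of 20000000 cells per group, of which DNA of mononucleosome size, cut from the gel lane of 12 U MNase, was sequenced, per the labels' protocols. Reads were aligned with Bowtie 0.12.9 on build mm9, per the submitters' processing notes. For each library the authors deposited its nucleosome calls, each with a start, an end and a score. Which caller and cutoffs were used, and how the score is defined, is not given in the sources used here. Only calls past those cutoffs are listed, so lack of a call does not show lack of a nucleosome.

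Groups were taken from the sample titles. Autosomal calls with end minus start of 180 bp or more were wide, and the centre was the midpoint. The members, classes and comparisons were chosen with earlier results of these data known. Regions were named by rule: in each list the 5 highest scores, the 5 widest, and the 3 highest scores with 2 or more or with no partner, and the 3 windows of 10 kb with most wide calls, of which a part is printed. Alternatives were other width limits, a score limit, leaving out chromosomes 8 and 12, other rules for a partner and other neighbour limits. Intervals are Wilson for shares, exact for the ratio of 2 counts and Poisson on a log scale for contrasts. Chromosomes X, Y and M, and genes and DNA sequence, were left out of the comparisons. The counting functions were tested on simulated data. The software was Python 3.11.15, pandas 2.3.3, numpy 2.4.6, matplotlib 3.10.9 and scipy 1.17.1.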

Additional observations from a re-analysis of the deposited data

How the results depend on the processing

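Values are differences in percentage points, first group minus second, or log2 ratios of the periodicity contrast, and in each pair tamoxifen comes before ethanol. Only for calls without a partner did the order of wide calls and calls 100 to 120 bp wide turn. Wide minus 100 to 120 bp was -2.54 and -1.36 with each call's own interval. It became 0.529 and 2.01 within 100 bp of the centre, 6.93 and 8.28 with lists limited to their median score or above, which removes partners from both, and -1.21 and 0.0593 with any overlap of 1 bp, while it was -1.29 and -0.409 at a width limit of 170 bp and -4.34 and -3.48 at 200 bp. For 2 or more partners it was 1.94 and 2.55 at 170 bp, 3.99 and 5.22 at 200 bp, 1.18 and 1.62 with that score limit, 2.29 and 3.05 without chromosomes 8 and 12, 3.96 and 5.03 with any overlap, and 2.24 and 2.99 within 100 bp. For 1 wide partner it was 6.18 and 6.62 at 170 bp, 2.83 and 3.05 at 200 bp, 4.29 and 4.63 with any overlap, and 4.20 and 4.53 within 100 bp. For next calls that are wide it was 0.905 with tamoxifen at 170 bp, 0.971 with ethanol with that score limit, and 0.184 and 0.128 at 200 bp, where the intervals included 0. The neighbour share was -6.92 and -7.09 at 170 bp, -6.22 and -6.24 with that score limit and -4.47 and -4.39 for gaps of 300 bp or less, and with tamoxifen -7.78 at 200 bp and -7.02 without chromosomes 8 and 12. The contrast from the centres was -0.86 and -0.73 at 170 bp, -1.13 and -0.995 at 200 bp, and -1.02 with tamoxifen with that score limit. These values compare unlike parts of the ladder. From the edges the contrast was -0.53 and -0.28. Tamoxifen minus ethanol among wide calls, for 2 or more partners, was -0.623 at 170 bp, -1.24 at 200 bp, -0.443 with that score limit and -1.14 with any overlap. For 1 wide partner it was -0.351 at 200 bp, and for no partner 3.85 with that score limit. The neighbour share, 0.771 higher with tamoxifen, was 0.325 at 200 bp, 0.164 with that score limit and 0.311 within 300 bp, where the intervals included 0. The share of wide calls was 0.1196 higher with tamoxifen with that score limit, where the interval, 0.0362 to 0.203, left out 0, and the contrast from the edges gave -0.10. Measures from the edges were chosen after seeing the data. Apart from the effects of construction named here and in the text, for each of these changes the cause was not tested in any way. No paired analysis was possible because there is only 1 library in each group.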

Other observations

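On the X chromosome, which the comparisons leave out, wide calls were 405 of 11234 calls with tamoxifen, 3.61% (Wilson interval 3.28 to 3.97%), and 371 of 9935 with ethanol, 3.73% (3.38 to 4.13%). Both shares lay below those of the 19 autosomes, of which the lowest were 4.44% with tamoxifen and 4.49% with ethanol. Median scores of wide calls there were 96.1 with tamoxifen and 97.6 with ethanol, and those of all X calls 82.7 and 83.6. On the Y chromosome 6 of 370 tamoxifen calls and 2 of 324 ethanol calls were wide.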
